A study of Mus musculus with 12 samples.

Results

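The 49 genes described here encode proteins of the presynaptic terminal, where synaptic vesicles are stored, docked, fused and recovered. They were chosen by name, with earlier results of these data known. Each is a listed gene symbol that was looked up in the deposited tables of 39174 gene identifiers, and all 49 were found. Each of them had at least 1 FPKM (mapped fragments scaled to transcript length and library depth) in at least 3 of 12 libraries, so that all 49 are among the 14982 genes tested. Pclo stands under 2 identifiers, and the entry of higher mean is used; the other had between 1.46 and 9.15 FPKM.

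The libraries come from primary motoneuron cultures of FVB mice, and every group carries the human SMN2 transgene. Smn-null (Smn-/-;SMN2) cultures lack mouse Smn1 and are a cell model of spinal muscular atrophy, and control (Smn+/+;SMN2) cultures keep it. The 4 groups of 3 libraries each are Smn-null cultures with 0.5 µM R-Roscovitine, untreated Smn-null cultures, control cultures with 0.5 µM R-Roscovitine and untreated control cultures. R-Roscovitine is a purine compound that blocks cyclin-dependent kinases and acts as an agonist of presynaptic voltage-gated calcium channels. The title of the series names motoneuron function under R-Roscovitine as its subject. Neither the age of the mice nor the number of animals per culture is given in the labels, which also do not say that the 3 libraries of each group stem from independent cultures. The p-values therefore describe the scatter of these libraries alone, and that scatter may in part be technical.

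At a nerve terminal, synapsins tether a reserve of vesicles, and active zone proteins such as RIM, Munc13 and Bassoon hold and prime vesicles at the release site. Calcium that enters through voltage-gated channels binds synaptotagmin, and the SNARE proteins VAMP2, SNAP-25 and syntaxin-1 pull vesicle and plasma membrane together. Clathrin adaptors, endophilin, dynamin and synaptojanin then retrieve the membrane. Reduced transmitter release at the neuromuscular junction is a known feature of mouse models of spinal muscular atrophy.

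Smn1, the targeted gene, had 6.82, 5.04 and 7.35 FPKM in treated Smn-null libraries, against 45.15, 38.15 and 39.2 FPKM in treated control libraries. Untreated Smn-null libraries had 6.11, 7.19 and 8.58 FPKM, against 30.9, 41.2 and 51.2 FPKM in untreated control libraries. The genotypes did not overlap, and whether the remaining values come from reads of SMN2 was not tested. Depth lay between 19.5 and 28.7 M reads per library, with 22.2 ± 2.05 M in Smn-null and 26.5 ± 1.98 M in control libraries (SD, n = 6). The defining motoneuron markers were nearly absent. Of 11 motoneuron markers in the files, Chat, Slc5a7, Mnx1, Isl1, Isl2, Lhx3 and Lhx4 stayed under 1 FPKM in all 12 libraries, with Mnx1 at 0 in each of them, while all 20 pan-neuronal markers and 15 of 17 interneuron markers were above it in at least 1 library. Of the same motoneuron list, Prph, Chodl, Ret and Gfra1 passed the filter and were tested, and the list summed to 13.3 to 27.55 FPKM per library. Summed levels per library were 1776 to 3222 FPKM for pan-neuronal, 2355 to 4226 FPKM for progenitor and 150.5 to 505.6 FPKM for astroglia markers. Vim was the highest progenitor marker by mean. The values therefore describe cultures with transcripts of neuronal, progenitor and astroglia markers. The labelled cell type could not be shown by Chat, Mnx1, Isl1 and the other markers under 1 FPKM.

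Most of the 49 genes were well expressed. The mean over the 12 libraries was at least 50 FPKM in 7 of them, between 10 and 50 FPKM in 28 and under 10 FPKM in 14. Vamp2, which encodes the SNARE protein of the synaptic vesicle, was the highest at 250.2 FPKM, and Cplx1, Rab3a, Snap25, Syp, Syn1 and Sncb followed with 104, 92.8, 84.2, 68.9, 64.3 and 57.9 FPKM. In these cultures 47 of the 49 reached 1 FPKM in every library; Doc2b and Sncg did so in 5 of 12 and had the lowest means, 0.880 and 0.812 FPKM. The interval that Cufflinks gives for a value extended to each side by a median of 6.51% of the value over the 49 genes, with a range of 2.57% to 49.2%. This interval covers counting and assignment error only. Of the 49 genes 19 share exonic bases with another gene of the GENCODE M21 annotation, none of them 20% or more of its bases, and the sources used here do not say whether counting used the strand.

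The comparison of genotypes asks which release genes differ when Smn1 is missing. Averaged over the treatments, 40 of the 49 genes were lower in Smn-null cultures, with a median log2 difference (Smn-null minus control) of -0.33, against -0.01 over all tested genes. In bulk libraries fewer neurons and less RNA per neuron cannot be told apart here, and 18 of 20 pan-neuronal markers were lower as well. Limma with Benjamini-Hochberg adjustment over all tested genes, with the 12 libraries counted as independent, called 11 of the 49 lower and none higher. These were Syn1, Sv2c, Syngr3, Syt5, Cplx1, Rims1, Rab3a, Rab3b, Dnm1, Synj1 and Snap91. Of all tested genes, 4.83% were called in this comparison, 1.80% as lower and 3.03% as higher. The 11 encode proteins of several steps of the cycle: reserve vesicles, calcium sensing, clamping, the active zone, the vesicle GTPases and endocytosis. An unadjusted p under 0.05 was reached by 32 of the 49 and by 23.2% of all tested genes.

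The 11 calls depend on how the libraries are counted. Treated and untreated libraries of the same genotype and number deviated together, and with the 2 averaged to 1 value, or with the pair as a random effect, 0 of 49 genes passed. In those fits 1 and 64 of all tested genes passed. Unless another fit is named, the adjusted p-values given for single genes count the 12 libraries as independent. An SD with n = 6 pools the treated and untreated libraries of a genotype, and so includes libraries that deviated together. Leaving out a single library gave counts between 0 and 15 of the 49, and between 6 and 1362 of all tested genes. Without untreated Smn-null library 3 or treated Smn-null library 1, 0 of the 49 and 6 of all tested genes passed. The counts were 0 and 36 without treated Smn-null library 3, and 0 and 112 without untreated control library 2. They were 0 and 54 without treated control library 1. Without untreated Smn-null library 1 they were 1 and 155, and without treated control library 2 they were 3 and 426. Of the 49, 4 passed without untreated Smn-null library 2 or without untreated control library 1, where the count over all tested genes is not given here. The median of the 49 genes stayed between -0.42 and -0.27 when any library was left out.

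**Figure D1:**
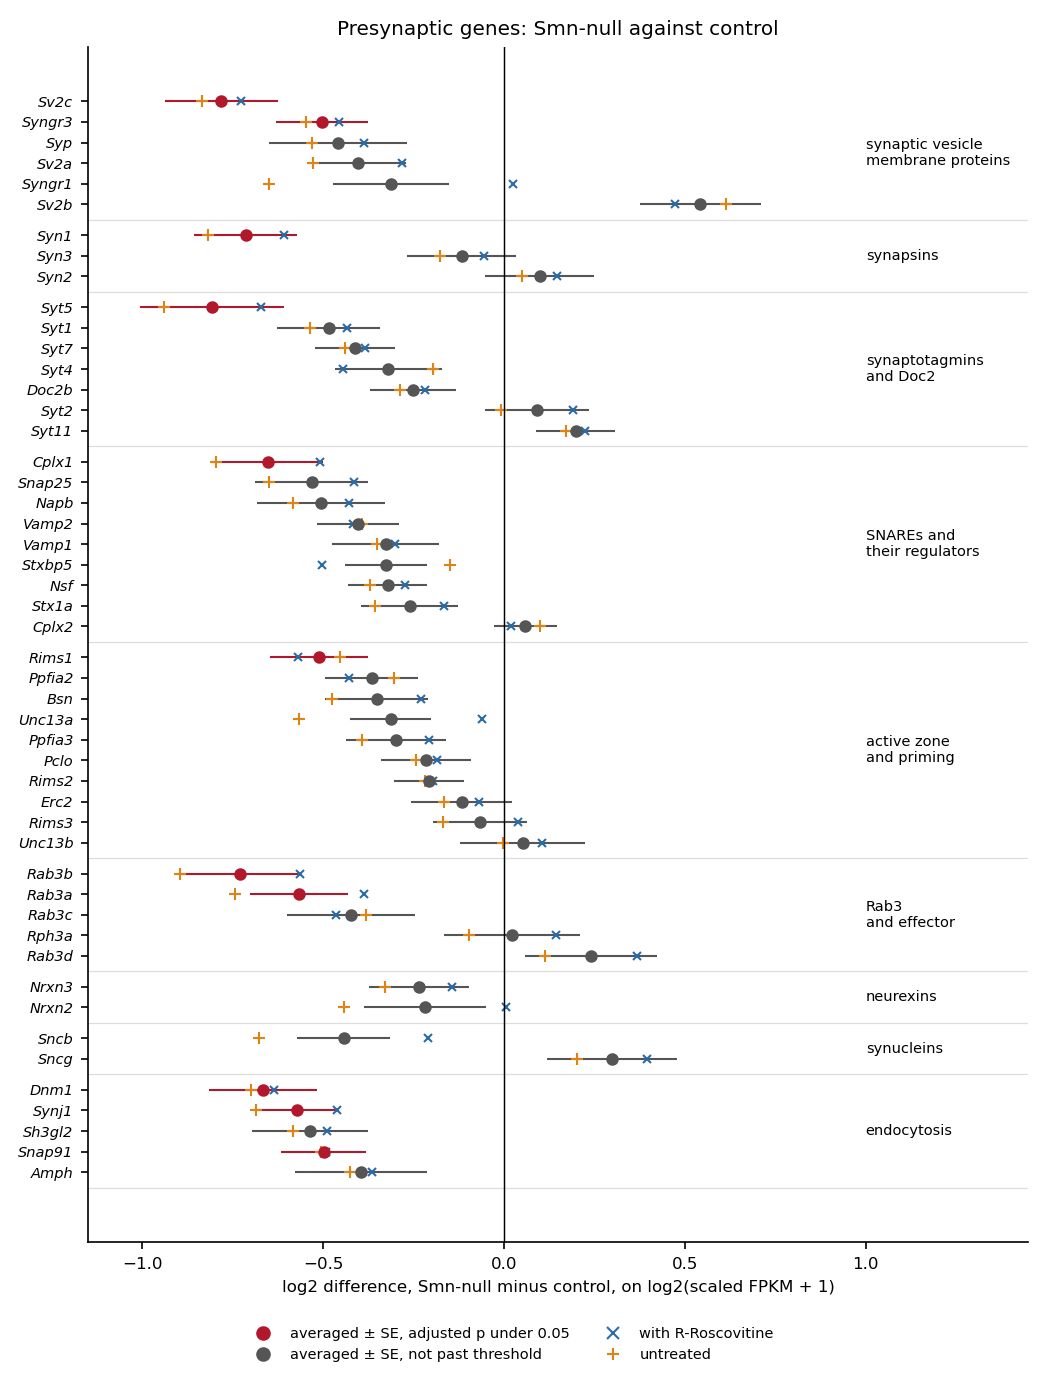
Difference between Smn-null and control cultures for each of the 49 genes, grouped by role. The horizontal axis is the log2 difference, Smn-null minus control, on log2(scaled FPKM + 1); circles with bars are the mean over treatments ± SE, crosses the difference with R-Roscovitine and plus signs the difference without treatment. Most symbols lie left of 0, the 11 red circles passed the threshold, and Sv2b lies farthest to the right at 0.54.

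Without treatment, 43 of the 49 genes were lower in Smn-null cultures, with a median of -0.39, and none passed the threshold, against 0.00667% of all tested genes, which is Smn1 alone. An unadjusted p under 0.05 was reached by 24 of the 49 and by 14.1% of all tested genes. Whether groups overlap is read from the deposited FPKM throughout, before the scaling that the tests use. In 25 of the 49 every untreated Smn-null library lay below every untreated control library, against 12.5% of all tested genes. In 1, Sv2b, every Smn-null library lay above, against 7.78% of all tested genes. With R-Roscovitine, 37 of the 49 were lower, with a median of -0.28, and again none passed (0.00667% of all tested genes); 14 of the 49 and 13.0% of all tested genes had an unadjusted p under 0.05, among the 49 lowest in Sv2c (-0.73 ± 0.22, SE; limma adjusted p = 0.226) and Stxbp5 (-0.50 ± 0.16, SE; limma adjusted p = 0.239). Here 13 of the 49 lay below control in every library, against 8.87% of all tested genes, and none lay above, against 8.90%. In both treatments 12 genes lay below control in every library (Syn1, Syt5, Syt7, Sv2c, Snap91, Rims1, Rab3a, Ppfia2, Dnm1, Synj1, Syngr3 and Sh3gl2), against 2.86% of all tested genes, and none lay above in both, against 2.47%. In Syt7, Sv2c, Rims1 and Ppfia2 all 6 Smn-null libraries lay below all 6 control libraries, against 1.79% of all tested genes; the reverse held for none of the 49 and for 1.38% of all tested genes. On the scaled values the counts were 23 in place of 25, 11 in place of 13, 10 in place of 12 and 2 in place of 4, against 10.1%, 7.99%, 2.28% and 1.29% of all tested genes. Napb and Sh3gl2 then overlapped without treatment, Sh3gl2 and Snap91 with R-Roscovitine, and Rims1 and Sv2c over all 6 libraries, while Syt7 and Ppfia2 still did not.

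Synapsins coat the vesicle surface and bind it to actin. Syn1, which encodes synapsin I, had 54.4, 68.8 and 41.2 FPKM in treated Smn-null libraries, against 95.4, 87.0 and 69.5 FPKM in treated control libraries. Without treatment, 39.9, 41.4 and 42.2 FPKM were measured in Smn-null libraries, against 93.8, 80.4 and 57.4 FPKM in control libraries. The untreated Smn-null libraries lay close together and all of them below the lowest control library, and with and without R-Roscovitine the libraries of the 2 genotypes did not overlap. The averaged difference was -0.71 ± 0.14 (SE; limma adjusted p = 0.0223). The paralogs of Syn1 did not pass: Syn2 averaged 14.8 ± 2.50 FPKM in Smn-null and 14.1 ± 2.98 FPKM in control libraries, and Syn3 8.59 ± 1.66 FPKM in Smn-null and 9.71 ± 2.52 FPKM in control libraries (SD, n = 6). As a share of the summed synapsin FPKM, Syn1 made up 68.0% ± 6.20 in treated Smn-null and 77.6% ± 1.58 in treated control libraries. Without treatment it made up 65.6% ± 3.00 in Smn-null and 76.7% ± 2.56 in control libraries (SD, n = 3). The shares did not overlap in either treatment. The exact two-sided permutation p was 0.1 each time, which is the lowest value that groups of 3 and 3 can reach, and 0.225 after adjustment over 54 such tests of family shares, of which 24 had no overlap.

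Syn1 lies at chrX:20860511-20921004 on the minus strand of GRCm38, and its promoter is shown because it is the gene of lowest p between genotypes among the 49. The RefSeq table (GRCm38.p6) gives its start next to the 250 bases chrX:20920919-20921168, written here on the gene's strand, 5′ to 3′, with the motif matches in capitals. The sources place the start differently, and part of these bases lies within the locus just given.
Syn1 promoter: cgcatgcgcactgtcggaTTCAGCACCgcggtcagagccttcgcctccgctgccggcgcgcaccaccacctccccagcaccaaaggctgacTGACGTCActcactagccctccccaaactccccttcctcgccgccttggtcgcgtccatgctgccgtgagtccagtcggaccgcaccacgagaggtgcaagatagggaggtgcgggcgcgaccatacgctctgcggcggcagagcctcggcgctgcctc
The matches are TTCAGCACC, the left part of RE1, the element bound by the neuronal repressor REST, and TGACGTCA, the cyclic AMP response element bound by CREB. Promoters of this length are in the table for 39 of the 49 genes and were searched on both strands, and none of the 4 motifs searched contains another. The RE1 part was in 2 of the 39 (Syn1 and Ppfia3), or 5.13%, against 0.399% of the promoters of tested genes and 0.301% of all 32851 promoters. The cyclic AMP response element was in 2 of the 39 (Syn1 and Sh3gl2), or 5.13%, against 3.17% and 1.55%. GGGCGG, the GC box, was in 29 of the 39, or 74.4%, against 65.7% and 32.7%. A match describes these letters and no binding.

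The SV2 proteins are glycoproteins of the vesicle membrane that bind synaptotagmin, and their 3 genes did not share a direction. Sv2c, which in the brain is found in a subset of neurons, had 14.7, 16.0 and 9.09 FPKM in treated Smn-null libraries, against 27.2, 23.95 and 16.9 FPKM in treated control libraries. In untreated Smn-null libraries the values were 11.2, 10.8 and 8.11 FPKM, against 20.9, 20.4 and 16.3 FPKM in untreated control libraries. All 6 Smn-null libraries lay below all 6 control libraries in deposited FPKM, and after scaling the highest Smn-null value, 15.9, passed the lowest control value, 15.8. The averaged difference was -0.78 ± 0.16 (SE; limma adjusted p = 0.0226).

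Sv2b stood on the other side of 0, at low levels. It had 3.06, 2.075 and 4.27 FPKM in treated Smn-null libraries, against 2.64, 1.16 and 2.23 FPKM in treated control libraries. Its untreated levels were 3.27, 2.48 and 3.86 FPKM in Smn-null libraries, against 2.05, 1.33 and 2.02 FPKM in control libraries. The genotypes overlapped with R-Roscovitine and did not overlap without it. Its difference of 0.54 ± 0.17 (SE) missed the threshold (limma adjusted p = 0.0782). Relative to pan-neuronal markers it was 0.78 and passed (limma adjusted p = 0.0296), in a scaling that moved the median of all tested genes to 0.23. Sv2a, the most widely expressed of the family, averaged 17.2 ± 2.96 FPKM in Smn-null and 23.8 ± 5.34 FPKM in control libraries (SD, n = 6). Sv2b made up 9.13% ± 4.52 of the family's FPKM in treated Smn-null and 4.16% ± 1.63 in treated control libraries, and 11.4% ± 2.93 in untreated Smn-null and 4.17% ± 1.25 in untreated control libraries (SD, n = 3). The exact permutation p was 0.2 with and 0.1 without R-Roscovitine, where 0.1 is the smallest possible. Adjusted over the 54 tests of family shares, these were 0.386 and 0.225.

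The promoters of Sv2c and Sv2b are set side by side because these genes of 1 family had differences of opposite sign. They are chr13:96132578-96132827 and chr7:75309263-75309512, both on the minus strand, from the same table; of 4 starts listed for Sv2b the most upstream is shown. Capitals mark CCGCCC, the GC box read on the other strand, and TTTATA, the TATA box TATAAA read on the other strand.
Sv2c promoter: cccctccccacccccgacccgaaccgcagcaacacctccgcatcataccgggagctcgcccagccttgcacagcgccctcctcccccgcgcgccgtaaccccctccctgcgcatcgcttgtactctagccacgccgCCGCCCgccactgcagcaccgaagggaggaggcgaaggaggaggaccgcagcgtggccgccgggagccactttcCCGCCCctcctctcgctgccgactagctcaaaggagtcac
Sv2b promoter: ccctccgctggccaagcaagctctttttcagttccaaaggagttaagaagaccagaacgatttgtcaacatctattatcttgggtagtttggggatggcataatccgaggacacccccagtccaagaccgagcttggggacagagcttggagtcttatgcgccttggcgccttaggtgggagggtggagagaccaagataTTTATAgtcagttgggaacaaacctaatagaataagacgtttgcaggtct
The Sv2c window is 70.8% G and C and holds 2 GC boxes, and the Sv2b window is 48.8% G and C and holds none. TATAAA was in 2 of the 39 promoters (Sv2b and Rab3b), or 5.13%, against 7.49% of the promoters of tested genes and 12.4% of all promoters.

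Among the other vesicle membrane proteins, Syngr3, a synaptogyrin, had 39.4, 41.3 and 31.9 FPKM in treated Smn-null libraries, against 68.1, 46.3 and 44.9 FPKM in treated control libraries. Untreated Smn-null libraries had 34.2, 27.6 and 29.5 FPKM, against 56.5, 43.5 and 39.9 FPKM in untreated control libraries. No Smn-null library reached a control library of the same treatment, and the averaged difference was -0.50 ± 0.13 (SE; limma adjusted p = 0.0419). Syp, which encodes synaptophysin, the most abundant of this group, averaged 57.2 ± 15.2 FPKM in Smn-null and 80.7 ± 20.8 FPKM in control libraries (SD, n = 6) and did not pass (-0.46 ± 0.19, SE; limma adjusted p = 0.171). Syp and its antisense neighbour Gm14703 share 16.8% of the exonic bases of Syp.

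Synaptotagmins are the calcium sensors of the vesicle, except for forms such as Syt4 and Syt11 that do not bind calcium in the usual way. Syt5 had 35.0, 36.9 and 19.6 FPKM in treated Smn-null libraries, against 57.5, 46.1 and 41.6 FPKM in treated control libraries. Without treatment, 28.0, 25.8 and 15.5 FPKM were measured in Smn-null libraries, against 63.5, 43.8 and 33.2 FPKM in control libraries. The genotypes were separate in both treatments, and library 3 was the lowest of each group. The averaged difference, -0.81 ± 0.20 (SE), was the largest in size among the 49 genes (limma adjusted p = 0.0386). Syt7, the slow, high-affinity sensor, missed the threshold narrowly at -0.41 ± 0.11 (SE; limma adjusted p = 0.05002), with 12.2 ± 1.08 FPKM in the 6 Smn-null and 17.0 ± 3.12 FPKM in the 6 control libraries (SD), which did not overlap. Syt1, the fast sensor of evoked release, averaged 35.8 ± 6.75 FPKM in Smn-null and 51.5 ± 9.998 FPKM in control libraries (SD, n = 6; limma adjusted p = 0.0688). Syt4 and Doc2b, the gene of a soluble calcium sensor, had -0.32 ± 0.15 and -0.25 ± 0.12 (SE; limma adjusted p = 0.215 and 0.221), and Syt2, under 3 FPKM throughout, 0.09 ± 0.14 (SE; limma adjusted p = 0.757).

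Syt11 did not share this direction, at 46.3 ± 5.57 FPKM in Smn-null and 41.0 ± 4.54 FPKM in control libraries (SD, n = 6). Of the summed FPKM of the 6 synaptotagmins, Syt11 made up 31.9% ± 6.94 in treated Smn-null and 21.8% ± 1.63 in treated control libraries. Without treatment it made up 34.5% ± 4.37 in Smn-null and 23.6% ± 1.44 in control libraries (SD, n = 3). Syt5 made up 19.96% ± 4.38 in treated Smn-null and 25.7% ± 1.06 in treated control libraries, and 17.4% ± 3.98 in untreated Smn-null and 26.1% ± 4.02 in untreated control libraries. The shares of both genes did not overlap between genotypes in either treatment (each exact permutation p = 0.1, the smallest possible, and 0.225 adjusted).

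**Figure D2:**
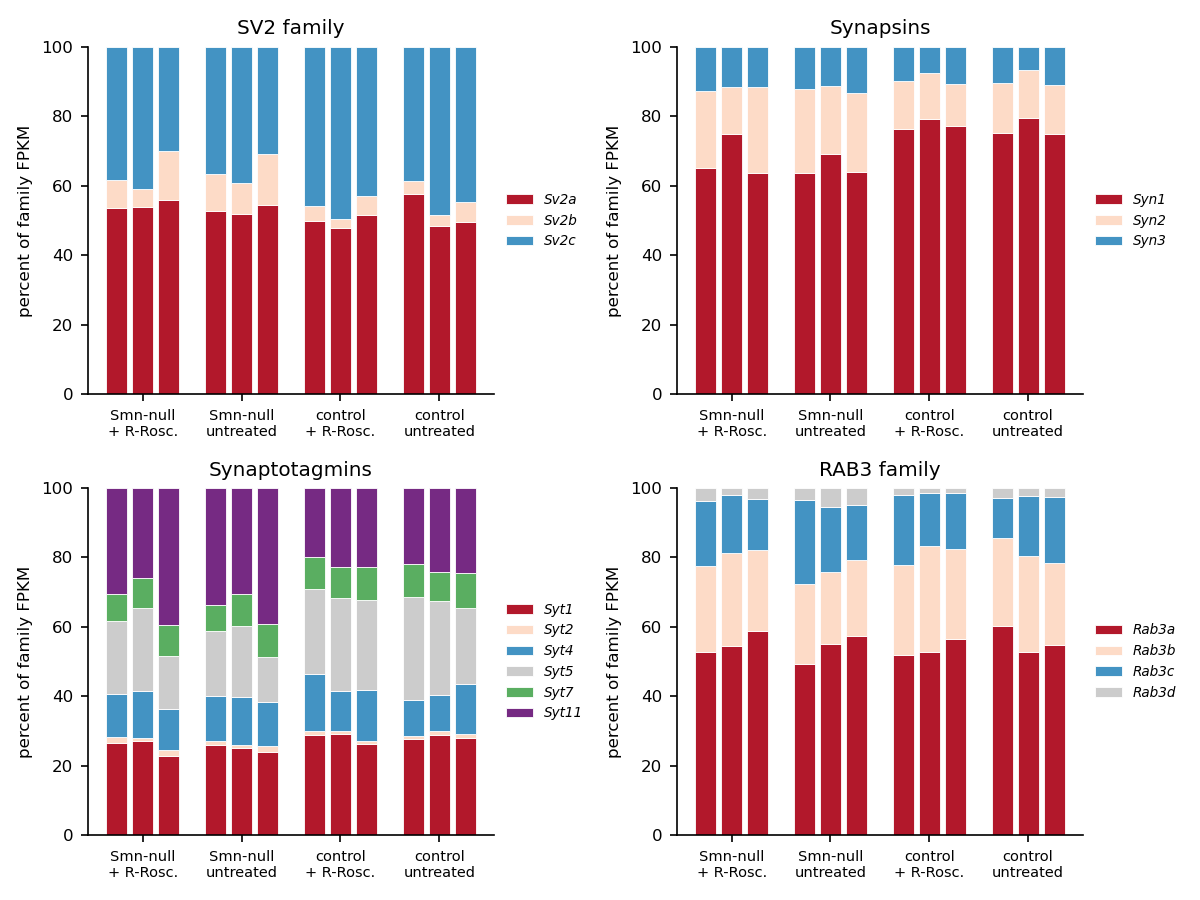
Share of each paralog in the summed FPKM of its family, in percent, with 1 bar per library (libraries 1 to 3 from left to right in each group). Syn1 makes up less and Syt11 more of its family in every Smn-null bar than in the control bars of the same treatment, and Sv2b averages 11.4% in untreated Smn-null and 4.17% in untreated control libraries.

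Of the SNARE proteins and their regulators, Cplx1 was called. Complexin-1 binds the assembled SNARE complex, and both holds back spontaneous fusion and aids evoked fusion. It had 103, 97.5 and 72.1 FPKM in treated Smn-null libraries, against 149.6, 146 and 99.96 FPKM in treated control libraries. In untreated Smn-null libraries the values were 80.3, 64.05 and 62.05 FPKM, against 134.5, 149.8 and 92.4 FPKM in untreated control libraries. The genotypes did not overlap without treatment, and 1 treated Smn-null library lay above the lowest treated control library. The averaged difference was -0.65 ± 0.15 (SE; limma adjusted p = 0.0356). Cplx2 was nearly level, with 12.2 ± 0.711 FPKM in Smn-null and 11.9 ± 1.03 FPKM in control libraries (SD, n = 6).

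The core SNARE genes were lower in mean without passing. Vamp2 had 240, 301 and 193 FPKM in treated Smn-null libraries, against 350.4, 330.3 and 297 FPKM in treated control libraries. Its untreated levels were 172, 182 and 193 FPKM in Smn-null libraries, against 235, 291 and 218 FPKM in control libraries. The difference was -0.40 ± 0.11 (SE; limma adjusted p = 0.0592), and without treatment every Smn-null library lay below every control library. Snap25, a SNARE of the plasma membrane, averaged 67.4 ± 13.5 FPKM in Smn-null and 101 ± 26.4 FPKM in control libraries (SD, n = 6; -0.53 ± 0.16, SE; limma adjusted p = 0.0692). Stx1a, the syntaxin of the same complex, had a mean of 13.5 ± 1.92 FPKM in treated Smn-null and 15.5 ± 2.63 FPKM in treated control libraries, and without treatment of 9.59 ± 1.76 FPKM in Smn-null and 13.0 ± 3.23 FPKM in control libraries (SD, n = 3). Nsf and Napb, the ATPase that takes SNARE complexes apart and its adaptor, had differences of -0.32 ± 0.11 and -0.51 ± 0.18 (SE; limma adjusted p = 0.105 and 0.113). Vamp1, the VAMP form common in spinal cord, and Stxbp5, which encodes the release inhibitor tomosyn, both had -0.33, with an SE of 0.15 and 0.11 (limma adjusted p = 0.206 and 0.114).

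At the active zone, 9 of 10 genes were lower in mean and 1 was called. Rims1, the scaffold that ties vesicles to calcium channels, had 10.9, 11.35 and 7.89 FPKM in treated Smn-null libraries, against 20.8, 13.3 and 13.2 FPKM in treated control libraries. Untreated Smn-null libraries had 9.65, 8.935 and 7.06 FPKM, against 11.4, 12.0 and 13.85 FPKM in untreated control libraries. All 6 Smn-null libraries lay below all 6 control libraries, the closest of them at 11.35 and 11.37 FPKM, and overlapped after scaling, at 11.3 and 10.9. The averaged difference was -0.51 ± 0.14 (SE; limma adjusted p = 0.0488). Ppfia2, a liprin, likewise did not overlap, with 5.71 ± 0.713 FPKM in the 6 Smn-null and 7.91 ± 1.98 FPKM in the 6 control libraries (SD), at -0.37 ± 0.13 (SE; limma adjusted p = 0.113). The other scaffold genes Bsn, Pclo, Erc2, Ppfia3, Rims2 and Rims3 had averaged differences between -0.35 and -0.07, and none passed. The priming factor genes Unc13a and Unc13b had -0.31 ± 0.11 and 0.05 ± 0.17 (SE; limma adjusted p = 0.119 and 0.893). Read relative to pan-neuronal markers, Pclo, Erc2, Rims2, Rims3, Syn3 and Nrxn2 changed sign and were higher in Smn-null cultures, again without passing.

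Rab3 GTPases mark vesicles for docking. Rab3a, their main neuronal form, had 87.2, 93.1 and 75.6 FPKM in treated Smn-null libraries, against 130.5, 113.5 and 96.9 FPKM in treated control libraries. Without treatment, 60.6, 61.6 and 62.4 FPKM were measured in Smn-null libraries, against 149, 105 and 77.8 FPKM in control libraries. Every Smn-null library lay below every control library of its treatment, the untreated Smn-null libraries differed from each other by less than 2 FPKM, and the averaged difference was -0.57 ± 0.13 (SE; limma adjusted p = 0.0369).

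Rab3b had 41.05, 45.6 and 29.99 FPKM in treated Smn-null libraries, against 65.7, 65.9 and 44.5 FPKM in treated control libraries. In untreated Smn-null libraries the values were 28.2, 23.3 and 23.9 FPKM, against 62.9, 54.95 and 33.7 FPKM in untreated control libraries. The genotypes overlapped by 1 library with R-Roscovitine and not without it, and the averaged difference was -0.73 ± 0.16 (SE; limma adjusted p = 0.0318). Rab3d, a form better known from secretory cells, made up 3.05% ± 0.890 of the Rab3 FPKM in treated Smn-null and 1.60% ± 0.372 in treated control libraries, and 4.56% ± 0.978 in untreated Smn-null and 2.51% ± 0.267 in untreated control libraries (SD, n = 3). These shares did not overlap in either treatment (each exact permutation p = 0.1, and 0.225 adjusted), while the level of Rab3d did overlap. Rab3c had -0.42 ± 0.18 and Rph3a, which encodes the Rab3 effector rabphilin, 0.02 ± 0.19 (SE; limma adjusted p = 0.171 and 0.959).

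The endocytosis genes had the lowest median of the 9 roles, -0.54, and all 5 were lower in mean. Dnm1, which encodes the neuronal dynamin that cuts vesicles from the membrane, had 36.85, 46.5 and 33.9 FPKM in treated Smn-null libraries, against 77.7, 62.2 and 47.9 FPKM in treated control libraries. Its untreated levels were 29.4, 33.5 and 30.8 FPKM in Smn-null libraries, against 65.45, 59.55 and 37.6 FPKM in control libraries. With and without R-Roscovitine the libraries of the 2 genotypes did not overlap, and the averaged difference was -0.67 ± 0.15 (SE; limma adjusted p = 0.0317).

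Synj1, the lipid phosphatase that helps strip the clathrin coat, had 27.9, 38.2 and 27.2 FPKM in treated Smn-null libraries, against 47.1, 41.7 and 40.9 FPKM in treated control libraries. Untreated Smn-null libraries had 21.4, 27.1 and 26.0 FPKM, against 51.45, 41.2 and 33.9 FPKM in untreated control libraries. Again no Smn-null library reached a control library of the same treatment (-0.57 ± 0.12, SE; limma adjusted p = 0.0241), and without treatment Synj1 had the lowest unadjusted p of the 49 genes, 0.00102.

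Snap91, the neuronal clathrin adaptor AP180, had 41.4, 45.8 and 33.15 FPKM in treated Smn-null libraries, against 73.15, 54.6 and 46.2 FPKM in treated control libraries. Without treatment, 34.6, 32.4 and 31.9 FPKM were measured in Smn-null libraries, against 52.9, 50.4 and 43.3 FPKM in control libraries. The genotypes did not overlap in deposited FPKM, and overlapped with R-Roscovitine after scaling, at 45.55 in Smn-null library 2 and 45.45 in control library 3. The averaged difference was -0.50 ± 0.12 (SE; limma adjusted p = 0.0370). Sh3gl2, which encodes endophilin A1, missed the threshold (-0.54 ± 0.16, SE; limma adjusted p = 0.0727), and Amph, which encodes amphiphysin, had -0.39 ± 0.18 (SE; limma adjusted p = 0.214).

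**Figure D3:**
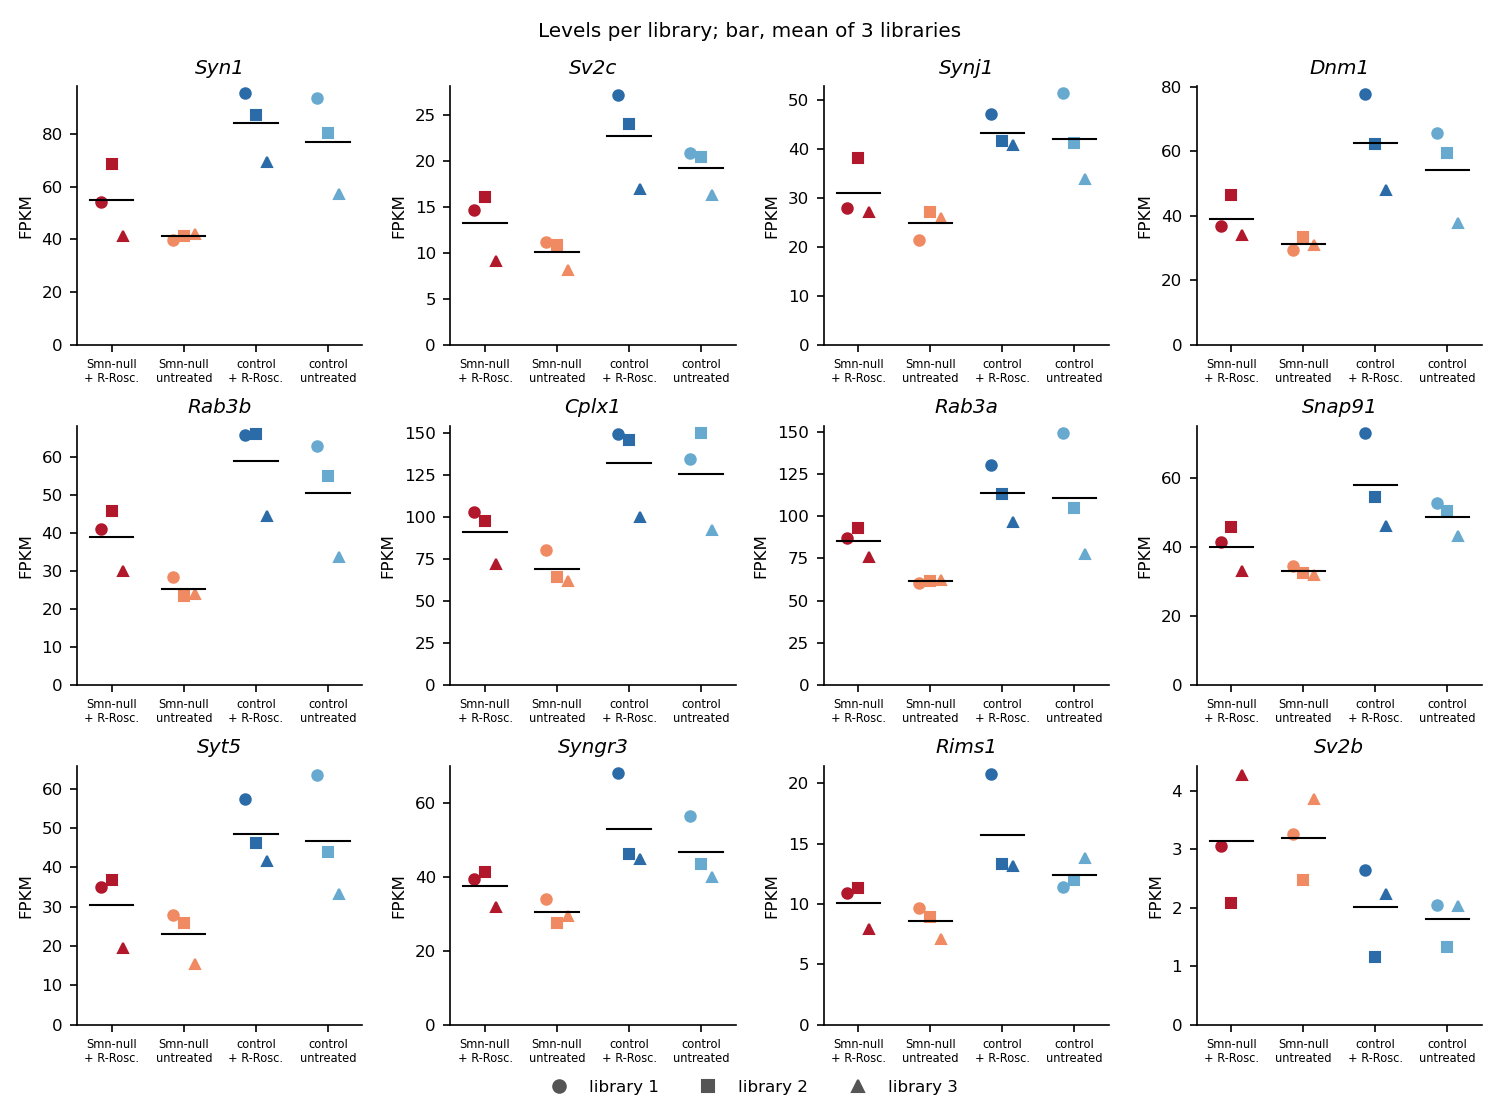
Level of the 11 called genes and of Sv2b in each library, in FPKM, on a linear axis from 0; symbols stand for libraries 1 to 3 and bars for the mean of 3 libraries. In the 11 called genes the untreated Smn-null libraries sit below every untreated control library, and in Sv2b they sit above.

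Synucleins and neurexins were less uniform. Sncb, the most abundant synuclein here, averaged 48.3 ± 10.3 FPKM in Smn-null and 67.4 ± 14.2 FPKM in control libraries (SD, n = 6; -0.44 ± 0.13, SE; limma adjusted p = 0.0642). Sncg, near 1 FPKM, had 0.30 ± 0.18 (SE; limma adjusted p = 0.346). The adhesion proteins Nrxn2 and Nrxn3 had -0.22 ± 0.17 and -0.24 ± 0.14 (SE; limma adjusted p = 0.465 and 0.329).

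Differences between libraries of 1 group bear on all of these values. In deposited FPKM, untreated control library 1 held the highest of the 3 untreated control values in 42 of the 49 genes, against 41.9% of all tested genes, and treated control library 1 in 45, against 39.1%. Treated Smn-null library 3 held the lowest of its group in 36 of the 49, against 29.6% of all tested genes. On scaled values the 3 counts were 38, 44 and 37, against 38.4%, 38.7% and 30.7% of all tested genes. Without both control libraries 1, 0 of the 49 genes and 60 of all tested genes were called.

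Markers of cell types moved with the genotype as well. Of 20 pan-neuronal markers 18 were lower in Smn-null cultures averaged over treatments, with a median of -0.28, and 2 were called. Their summed level was 2045 to 2455 FPKM in treated Smn-null and 2145 to 3014 FPKM in treated control libraries, and 1776 to 1980 FPKM in untreated Smn-null and 2031 to 3222 FPKM in untreated control libraries. The 49 release genes summed to 1155 to 1531 FPKM in treated Smn-null and 1538 to 2166 FPKM in treated control libraries, and to 1053 to 1153 FPKM in untreated Smn-null and 1328 to 1965 FPKM in untreated control libraries. In deposited FPKM the sums of the 49 did not overlap between genotypes in either treatment, and those of the pan-neuronal markers overlapped with R-Roscovitine. After scaling both sums overlapped with R-Roscovitine, those of the 49 at 1523 in Smn-null and 1514 in control libraries, and the pan-neuronal sums also without it.

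Interneuron markers were lower in 12 of 15 tested, with a median of -0.42 and 2 called. Astroglia markers were higher in 11 of 12 tested, with a median of 1.09 and 7 called, and progenitor markers in 15 of 17, with a median of 0.67 and 9 called. The astroglia sum was 234 to 506 FPKM in treated Smn-null and 150.5 to 210.4 FPKM in treated control libraries, and 280.1 to 481 FPKM in untreated Smn-null and 159.7 to 209 FPKM in untreated control libraries. Of the other lists, oligodendrocyte markers were higher in 3 of 5 tested with 1 called, motoneuron markers lower in 3 of 4 tested with 1 called, and no tested marker of Schwann cells, fibroblasts, endothelium or macrophages was called. The part of cell composition in the differences of the release genes was not tested. They were also read relative to pan-neuronal markers, by setting the mean log2 level of the pan-neuronal markers equal in all libraries. The median of all tested genes then moved to 0.23, and that of the 49 release genes to -0.09, with 34 of 49 below 0. Of the 49 only Sv2b passed in that scaling, and none of the 11 genes did. The share of all tested genes called in that scaling is not given here, so this count of 1 is no result about the 49. The differences of the 11 relative to pan-neuronal markers lay between -0.57 (Syt5) and -0.27 (Snap91).

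**Figure D4:**
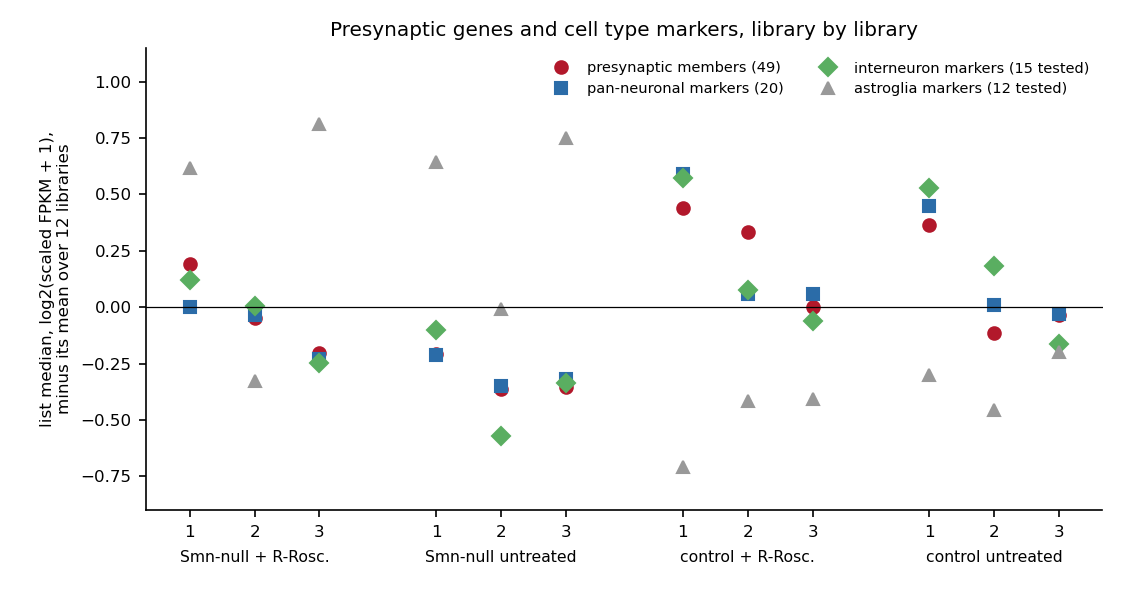
Median log2(scaled FPKM + 1) of the 49 release genes and of 3 marker lists in each library, each minus its own mean over the 12 libraries. Release genes, pan-neuronal and interneuron markers lie highest in control libraries 1, and astroglia markers lie highest in Smn-null libraries 1 and 3.

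A list of 56 further genes of release and vesicle recycling, 53 of them tested, gave a smaller median of -0.17, with 41 of 53 lower in Smn-null cultures. Of the 53, 2 were called, both as lower. Of all tested genes 1.80% were called as lower and 4.83% in either direction. Bin1, an amphiphysin relative, had 16.2, 19.2 and 14.9 FPKM in treated Smn-null libraries, against 22.05, 21.3 and 19.7 FPKM in treated control libraries. Without treatment, 13.85, 15.03 and 13.97 FPKM were measured in Smn-null libraries, against 23.7, 21.7 and 17.8 FPKM in control libraries. The genotypes were separate in both treatments, and Bin1, picked after its values were seen, was lower by 0.39 ± 0.09 on the log2 scale (SE; limma adjusted p = 0.0377).

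The second question of the design is what R-Roscovitine does to these genes. None of the 49 passed the threshold in any comparison of treated with untreated cultures, where 0% of all tested genes were called. Averaged over the genotypes, 46 of the 49 were higher with R-Roscovitine, with a median log2 difference (treated minus untreated) of 0.20, against 0.01 over all tested genes, and 5 had an unadjusted p under 0.05, against 1.63% of all tested genes. In Smn-null cultures 45 were higher, with a median of 0.25, and 8 had an unadjusted p under 0.05, against 2.40% of all tested genes. In control cultures 43 were higher, with a median of 0.11, and 1 had an unadjusted p under 0.05, against 1.25% of all tested genes. With genotype and number as a block, which pairs each treated library with its untreated partner, 0 of the 49 passed as well, and the lowest p was that of Rab3b, 0.000922 (adjusted p = 0.799). All 20 pan-neuronal markers were higher with R-Roscovitine too, with a median of 0.18, and all 15 interneuron markers, with 0.21. Read relative to pan-neuronal markers, the median of the 49 in Smn-null cultures turned to -0.03, while that of all tested genes moved to -0.29.

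Vamp2 had the lowest unadjusted p averaged over genotypes, 0.00288, with a difference of 0.41 ± 0.11 (SE; limma adjusted p = 0.9999). In control cultures every treated library lay above every untreated library in deposited FPKM, which made it the 1 gene of the 49 in which this was so, against 1.48% of all tested genes. The reverse held there for none of the 49 and for 3.04% of all tested genes. In Smn-null cultures the same held by 193.0 against 192.9 FPKM. On scaled values neither held: treated Smn-null library 3 had 194.3 against 195.4 in untreated library 3, and the lowest treated control library 292.8 against 294.1 in the highest untreated control library. Nrxn3, which encodes a presynaptic adhesion protein, had 13.9, 17.75 and 12.5 FPKM in treated Smn-null libraries, against 11.3, 8.89 and 9.76 FPKM in untreated Smn-null libraries. Treated control libraries had 16.9, 19.3 and 13.4 FPKM, against 17.0, 13.0 and 10.1 FPKM in untreated control libraries. The treated and untreated libraries overlapped in control cultures and not in Smn-null cultures, and the averaged difference was 0.41 ± 0.14 (SE; unadjusted p = 0.0101 by limma, adjusted p = 0.9999).

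In Smn-null cultures 13 of the 49 genes had every treated library above every untreated library (Sv2a, Vamp2, Unc13a, Rims3, Bsn, Rab3a, Rab3b, Nrxn3, Sncb, Nsf, Dnm1, Synj1 and Syngr1), against 6.17% of all tested genes. None had every treated library below, against 4.94% of all tested genes. On scaled values 12 of the 13 were separate, without Vamp2, against 5.94%. Of the 13, Rab3a, Rab3b, Dnm1 and Synj1 are among the genes called lower in Smn-null cultures. The comparisons share the untreated Smn-null libraries, so that a low value there enters both. Unc13a, which encodes the priming factor Munc13-1, had 11.8, 14.1 and 13.8 FPKM in treated Smn-null libraries, against 9.24, 8.96 and 8.97 FPKM in untreated Smn-null libraries. Treated control libraries had 17.35, 14.2 and 11.01 FPKM, against 16.7, 13.9 and 12.6 FPKM in untreated control libraries. The 3 untreated Smn-null libraries stood apart from the other 9. The treatment difference was 0.50 ± 0.16 in Smn-null and -0.01 ± 0.16 in control cultures (SE), and the test of their difference gave 0.50 ± 0.22 (limma over all tested genes; unadjusted p = 0.0420, adjusted p = 0.9999).

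Syngr1, another synaptogyrin, had 17.2, 13.7 and 13.2 FPKM in treated Smn-null libraries, against 8.44, 9.42 and 8.49 FPKM in untreated Smn-null libraries. Treated control libraries had 17.3, 12.7 and 13.9 FPKM, against 24.1, 12.2 and 10.8 FPKM in untreated control libraries. Untreated Smn-null libraries were again the lowest, and untreated control library 1 stood far above the other libraries of its group. The treatment difference was 0.68 ± 0.23 in Smn-null and 0.00 ± 0.23 in control cultures, and their difference was 0.67 ± 0.32 (SE; limma over all tested genes; unadjusted p = 0.0568, adjusted p = 0.9999). Over the 49 genes 41 had a larger treatment difference in Smn-null than in control cultures, with a median of 0.11, and none passed (0% of all tested genes); 1 had an unadjusted p under 0.05, against 1.91% of all tested genes. Read relative to pan-neuronal markers this median turned to -0.12, while that of all tested genes moved to -0.22.

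Pair by pair, on scaled values, the median of the 49 genes was 0.29, 0.41 and 0.10 in the Smn-null pairs and 0.10, 0.10 and 0.12 in the control pairs. The median of the pan-neuronal markers was 0.33, 0.40 and 0.13 in the same Smn-null pairs and 0.03, 0.05 and 0.11 in the same control pairs. The medians of both lists were highest in Smn-null pairs 1 and 2. In 12 of the 49 genes the treated library was the higher in 6 of 6 pairs (Syn2, Syt1, Syt4, Sv2c, Snap91, Stx1a, Rab3b, Nrxn3, Nsf, Dnm1, Syngr3 and Sh3gl2), against 2.52% of all tested genes. None of the 49 was lower in 6 of 6 pairs, against 1.98% of all tested genes.

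**Figure D5:**
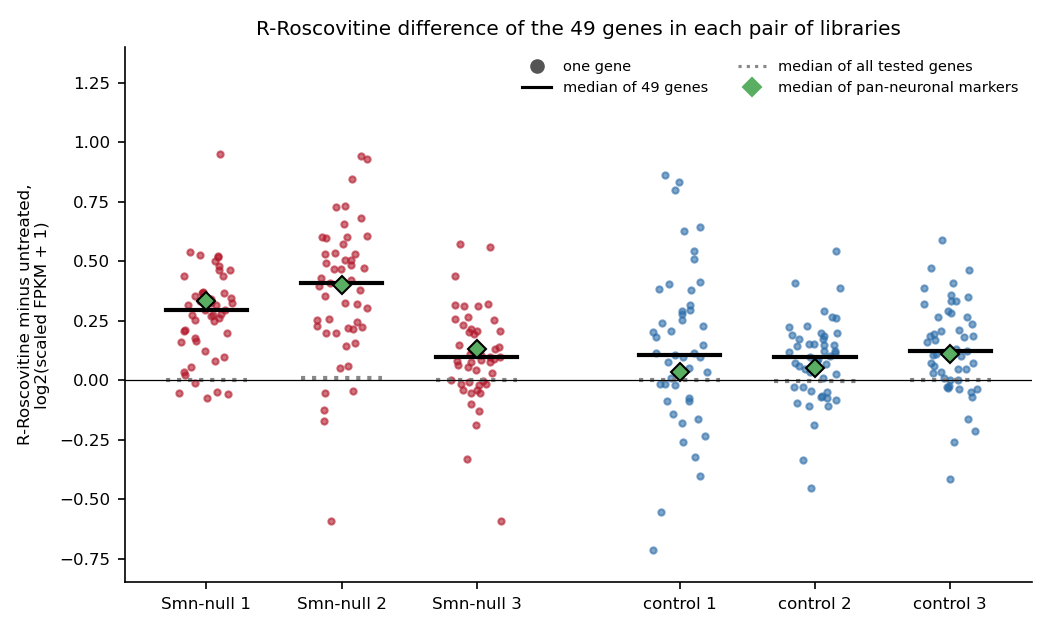
Log2 difference between the treated and the untreated library of the same genotype and number, for each of the 49 genes (points) in 6 pairs, with their median (bar), the median of all tested genes (dotted) and that of the pan-neuronal markers (diamond). The bars lie above 0 in every pair, highest at 0.41 in Smn-null pair 2, and the diamonds lie close to them.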

How the data were processed

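RNA of primary motoneuron cultures was sequenced as 12 libraries of the Lexogen mRNA-Seq Library Prep Kit V2, per the labels' protocols. The authors deposited 1 table of FPKM values per library, with Cufflinks intervals and status flags, per the file headers. Cufflinks 2.2.1, FastQC 0.10.1, Trim Galore 0.4.0 and the build GRCm38 are named in the submitters' processing notes; aligner settings and the use of strand are not stated there. Values of 19 identifiers that stand on several lines were summed. Depth was read from the spacing of low FPKM values; 29.2% to 31.3% of low values were whole reads within 0.01 reads, too few to recover counts. The status flag was not OK for 2 to 8 genes in each library.

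FPKM values were scaled by median of ratios and tested as log2(FPKM + 1) with limma 3.58.1 in R 4.3.3 (trend, two-sided, all 12 libraries, 4 group means). Genes had at least 1 FPKM in at least 3 libraries, 132 small RNA genes were left out, 14982 remained, and the threshold was a Benjamini-Hochberg adjusted p of 0.05. Fold changes on the log2(FPKM + 1) scale understate changes of low genes. Family shares were compared by exact permutation (SciPy 1.17.1). The procedure was tested on simulated data.

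Treated and untreated libraries of the same genotype and number deviated together (r = 0.569, 0.526 and 0.450 in Smn-null, 0.237, 0.596 and 0.338 in control), so that the numbers pair them. The alternatives were other scalings, filters, pseudocounts, weights and blocks, and leaving out libraries. The 49 genes and all lists were chosen with earlier results of these data known. Full statistics are given for the called genes, the 8 of highest mean FPKM, the 2 of lowest p in each of the 7 comparisons and members of families whose shares are described; other members and Bin1 are named by their values, Bin1 after these were seen; 1 result on a gene outside the 49 is not reported here; the promoters shown were chosen after the values were seen. Promoter sequences come from RefSeq (GRCm38.p6).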

Additional observations from a re-analysis of the deposited data

Results flagged for a closer look

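Stxbp5, which encodes tomosyn, a syntaxin-binding inhibitor of vesicle priming, was flagged because all 3 Smn-null pairs moved one way with R-Roscovitine and all 3 control pairs the other. The treated minus untreated difference was -0.05, -0.12 and -0.02 in the Smn-null pairs and 0.28, 0.41 and 0.19 in the control pairs. It had 11.9, 12.55 and 9.90 FPKM in treated Smn-null libraries, against 12.3, 13.8 and 9.99 FPKM in untreated Smn-null libraries. Treated control libraries had 19.7, 16.5 and 14.5 FPKM, against 16.6, 12.3 and 12.7 FPKM in untreated control libraries. The difference between the genotypes in the treatment effect was -0.36 ± 0.23 (SE) and did not pass by limma (unadjusted p = 0.142, adjusted p = 0.9999). Of all tested genes 431, or 2.88%, had pairs of opposite direction in this sense, and Stxbp5 was the 1 gene of the 49 among them. The 49 thus held no larger share of such genes than all tested genes.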

How the results depend on the processing

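Of the counts of the 49 genes called between genotypes averaged over treatments, 11 became 0 with no filter, 19 with a common FPKM sum, 1 relative to pan-neuronal markers, 20 with library weights, 26 with replicate number as a block, 0 with pairs as a random effect, 0 with 1 mean per genotype and number, 0 without both control libraries 1, and 0 to 15 without single libraries. The count of all called genes, 723, became 1 with no filter, 2017 with weights, 1772 with the replicate block, 64 with the random effect, 1 with 1 mean per genotype and number, 60 without both control libraries 1, and 6 to 1362 without single libraries. Without treatment 11 of the 49 and 458 of all genes passed with weights, and 12 and 327 with the replicate block, which with R-Roscovitine passed 3 and 252. Across genotypes the samples share only a number (r = -0.06, 0.14 and -0.01 without and 0.26, 0.05 and 0.31 with R-Roscovitine), so the block is no test of pairs. Relative to pan-neuronal markers the medians of the 49 were -0.0919 averaged, -0.0493 without treatment, -0.0345 for R-Roscovitine in Smn-null cultures and -0.116 for the difference of treatment effects. In the same order, those of all tested genes were 0.2261, 0.3424, -0.2871 and -0.2167. The cause was not tested. Between deposited and scaled values the count of genes with all 6 Smn-null below all 6 control libraries was 4 and 2, and that of genes higher in every treated control library 1 and 0. The scaled counts and the fits without both control libraries 1 and with treatment pairs as a block were added after seeing the data. No result changed direction while called. The number of libraries, 3 per group, limits the precision.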
